A study of Daphnia magna with 144 samples.

Results

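The Beta-estradiol group held 4 arrays of *Daphnia magna*, a freshwater water flea, chosen by the chemical named in the labels from the 144 arrays of the study. The study exposed animals to 36 chemicals with 4 arrays each and measured their RNA on 1-colour arrays labelled with Cy3. Each exposure used 20 daphnids of 14 days and lasted 24 h. The COMBO medium (1 L) held the chemical at a set fraction of its median lethal concentration. Beta-estradiol was given at 1 mg/L, with Ethanol named as its control. The labels name the same Ethanol control for 14 other chemicals. Those with doses in mg/L were 2-chloro vinyl ether at 17.3, Beta-benzene hexachloride at 146, Bifenthrin at 0.0001, Bis2-ethylhexyl phthalate at 0.039, Chloroform at 7.47, Dichlorobenzene at 1.51, Lamda Cyhalothrin at 0.0006, Methoxychlor at 0.0944, Nonylphenol at 0.0071, Toluene at 3.58, Toxaphene at 0.172 and Trichloroethylene at 2.49. PonasteroneA was given at 0.813 uM and Pyripoxyfen at 0.3 nM. For the other 21 chemicals the labels name Media, DMSO, Methanol or Acetone as the control. Of those named below, Silver (Media) was given at 4.3e-05 mg/L and Diazinon (Acetone) at 0.0003 mg/L. Permethrin and Phenanthrene (both DMSO) were given at 0.00041 and 0.366 mg/L. Because each dose followed the toxicity of its own chemical, no comparison between chemicals was made at a matched dose. The labels name no strain or sex, and RNA of many animals was extracted together, so fewer cells of a type and less RNA per cell cannot be told apart.

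Beta-estradiol is the main female sex steroid of vertebrates and acts there through nuclear oestrogen receptors that switch target genes on or off. Crustaceans run moulting and reproduction with other hormones: ecdysteroids, of which PonasteroneA is one, and juvenoids, which the insecticide Pyripoxyfen imitates. Nonylphenol is an industrial compound known as a weak oestrogen mimic in vertebrates. Bifenthrin and Lamda Cyhalothrin are pyrethroid insecticides, which hold voltage-gated sodium channels of nerve cells open. These are background facts and were not measured here. The probes carry identifiers that the files do not pair with genes, and 0 of 14338 identifiers were found in the RefSeq gene table, so the probes below are named by identifier and no function is given to any of them.

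The scanner tables gave a median foreground of 72 to 77 and a median local background of 37 to 38 intensity units on the Beta-estradiol arrays. Between 78.3% and 88.1% of probes were above background there (median 86.7%), against 52.4% to 93.2% on the arrays of the other Ethanol chemicals. Array 3 was the dimmest, with a median net intensity of 35 against 40 on each of the others. The 4 arrays also fell into pairs. On quantile-normalized log2 signals, the median absolute difference over probes was 0.0604 between arrays 1 and 2 and 0.0665 between arrays 3 and 4, but 0.120 to 0.138 between arrays of different pairs. In 33 of the 36 chemicals the 2 closest pairs of arrays had no array in common, though the array numbers of the pairs varied. They were 1 with 2 and 3 with 4 in 15 of the 36. Among these were 8 of the 15 Ethanol chemicals, Beta-estradiol and Bifenthrin included. The labels speak of 4 replicates and give neither slide nor scan date. What the pairs share is thus not known, and the 4 arrays may not be fully independent. The p-values measure only the spread between arrays of the same chemical, pooled over all 36 chemicals and not taken from Beta-estradiol alone. An SD over 4 arrays printed beside a p-value is thus not the spread that entered it. Chemical and handling cannot be told apart. Counts from a fit with the arrays averaged in pairs, chosen after the data were seen, are therefore given beside the main counts where they differ by more than 1.5 times.

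The first question was which transcripts differed from the Ethanol control. Of 13481 probes with a deposited log2 ratio, 7566 were called in the fit with limma (adjusted p under 0.05), 3423 of them higher and 4143 lower after Beta-estradiol, so that 56.1% of all probes were called. With quantile normalization of the ratios the excess of lower calls was gone, at 4345 higher and 4251 lower. Most changes were small. The median absolute log2 ratio was 0.35 over all probes and 0.55 over called probes. Of the called probes, 1526 were at least 1 log2 unit from the control, 473 higher and 1053 lower, and 65 were at least 3 units away. All 4 arrays had the same sign for 7322 of the called probes. A call on the mean of the 4 ratios favours this, so nothing is read from that count. The ratio sets each array against the authors' single Ethanol reference, so the spread of the control animals does not enter the test and its p-values are too small. The count was not high for this vehicle: Beta-estradiol ranked 7 of 15 from the fewest calls upward, between 3000 for 2-chloro vinyl ether and 9428 for Methoxychlor.

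The probe with the highest ratio was DM12319, with log2 ratios of 9.11, 9.14, 8.70 and 8.80 on the 4 arrays (mean 8.94 ± 0.22 SD, n = 4, adjusted p = 6.9e-21 by limma). Its own signal was clear, at 11.43 ± 0.17 log2 units, but the reference implied by subtracting the ratio lay at 2.41, under the lowest signal above background (3.06), so the size of the ratio is uncertain. The same probe was called higher in 7 of the other 14 Ethanol chemicals, and their ratios ran from -0.92 to 6.74. All 14 thus lay under Beta-estradiol.

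The next highest was DM07698, at 7.56, 7.49, 7.38 and 7.38 (mean 7.45 ± 0.09, n = 4, adjusted p = 2.3e-26 by limma). Bifenthrin came close to it, with a mean ratio of 6.90 ± 0.02. The probe was called higher in 11 of the 14 other chemicals.

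The lowest ratio belonged to DM03029, at -6.48, -6.65, -6.29 and -6.48 (mean -6.48 ± 0.15, n = 4, adjusted p = 2.5e-52 by limma). It was called lower in 10 of the other chemicals and higher in 2, and none went as low as Beta-estradiol. With quantile normalization of the ratios its mean was -8.00. In the main ratios Bifenthrin was at -4.96 ± 0.09. Methoxychlor came nearer to Beta-estradiol, with the lowest mean of the others at -5.36.

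The next lowest, DM11390, varied more, at -6.24, -4.39, -7.10 and -5.05 (mean -5.69 ± 1.21, n = 4, adjusted p = 1.3e-26 by limma). It was above background on only 2 of the 4 arrays, and all 4 ratios lay below the lowest mean of another chemical, -4.47, except the one of array 2. A probe this dim has no well measured size of change, and quantile normalization of the ratios gave a mean of -6.50.

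The next question was how far these changes were shared with the other chemicals whose control was Ethanol. All 15 sets of ratios share one Ethanol reference, so the counts of shared calls are given as a description with no test. Of the 7566 calls, 302 (3.99%) were made in the same direction in none of the other 14 chemicals. A further 1702 were shared with 1 to 3 others, 2308 with 4 to 7, 2283 with 8 to 11 and 913 with 12 or 13, and 58 with all 14. Few calls thus lay at either end of the range.

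The number shared with exactly 12 others stood out, at 774. In 639 of these the chemicals that lacked the call were 2-chloro vinyl ether and Toluene, the groups with the fewest calls (3000 and 3636). With these set aside, 800 Beta-estradiol calls (10.6%) were made in the same direction in each of the other 12 chemicals. Of these 246 were higher and 554 were lower, and 344 were at least 1 log2 unit from the control.

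**Figure D1:**
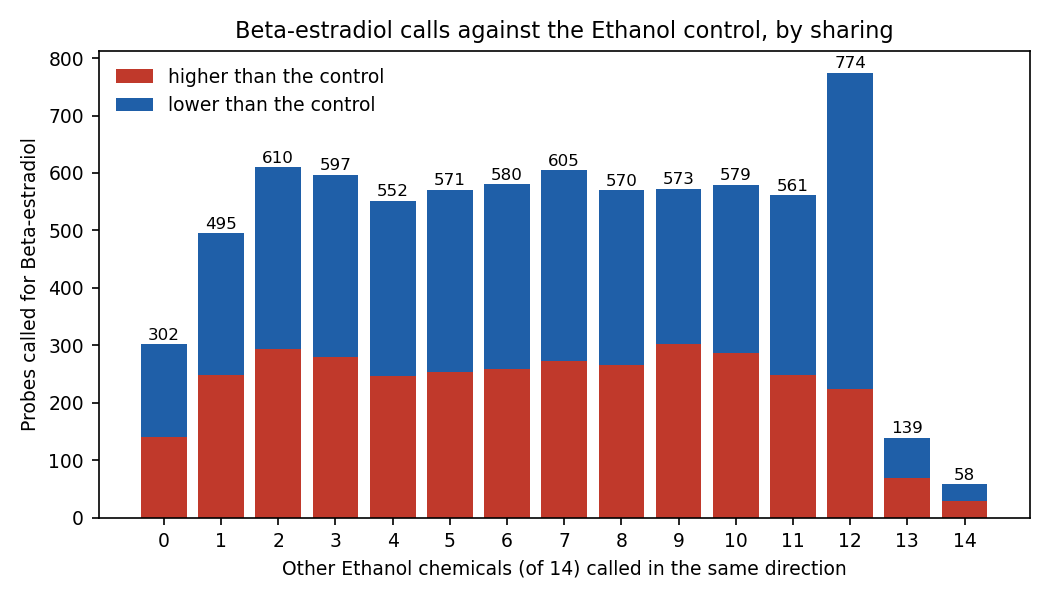
Number of probes called for Beta-estradiol against the Ethanol control (vertical axis) by how many of the 14 other Ethanol chemicals were called in the same direction (horizontal axis), split into higher and lower calls. The bars are nearly even from 2 to 11 chemicals, peak at 774 for 12 and drop to 58 for 14.

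Calls of at least 1 log2 unit were more often widely shared than calls as a whole. Since the sets of ratios share 1 reference, this too is a description, and nothing is read from it. Of the 1526 calls of at least 1 log2 unit, 26 were shared with no other chemical and 380 (24.9%) with 12 or more, against 971 (12.8%) of all calls. Calls also ran in opposite directions between chemicals. Of the 7566 calls, 4773 (63.1%) were opposite to the call in at least 1 other chemical, 658 in 7 or more, and 1 in all 14.

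Of the 58 probes called in the same direction in all 15 chemicals, 29 were higher and 29 lower, and 16 were at least 1 log2 unit away in every chemical. The leading lower probes were bright in the reference. DM06885 had ratios of -5.02, -4.90, -4.42 and -4.37 after Beta-estradiol (mean -4.68 ± 0.33, n = 4, adjusted p = 1.4e-54 by limma). The other 14 chemicals ranged from -7.44 to -2.85, and 11 of them were further from the control than Beta-estradiol. DM07346 was at -4.18, -4.29, -4.54 and -3.98 (mean -4.25 ± 0.23, n = 4, adjusted p = 9.9e-25 by limma), inside the range of the others, -4.80 to -2.74. Against the mean of the other chemicals, DM07346 did not pass the test (difference -0.38, adjusted p = 0.3 by limma).

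The leading higher probes were dim. DM06001 had ratios of 4.33, 4.13, 4.39 and 3.94 (mean 4.20 ± 0.21, n = 4, adjusted p = 1.8e-20 by limma), but its signal was only 3.50 ± 0.16 log2 units and the implied reference was 0.23, far under the lowest signal above background. DM02537 had ratios of 1.63, 2.28, 1.64 and 5.97 (mean 2.88 ± 2.08, n = 4, adjusted p = 5.2e-07 by limma). Array 4 decided that mean, which was 1.85 without it, and array 4 was the only one on which the probe was above background. Quantile normalization of the ratios gave means of 5.17 for DM06001 and 3.80 for DM02537. With the arrays averaged in pairs, 26 probes and not 58 were called in all 15 chemicals.

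The second question was which chemical Beta-estradiol resembled most. It was measured on the scanner signals, which need no control, as the median over 14276 probes of the absolute log2 difference between group means. Bifenthrin was the nearest of all 35 other chemicals, at 0.126. Pyripoxyfen followed at 0.221, Beta-benzene hexachloride at 0.242, Lamda Cyhalothrin at 0.248, Dichlorobenzene at 0.255 and Bis2-ethylhexyl phthalate at 0.274. These 6 were the only chemicals nearer than any of another vehicle, among which Phenanthrene, in DMSO, was nearest at 0.291. The ecdysteroid PonasteroneA stood at 0.329 and Nonylphenol at 0.341, behind chemicals of other vehicles. Chloroform at 0.370, Trichloroethylene at 0.374 and Methoxychlor at 0.381 were the farthest of the vehicle. The 21 chemicals of other vehicles ran up to 0.523, reached by Permethrin, a pyrethroid like Bifenthrin but dissolved in DMSO.

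**Figure D2:**
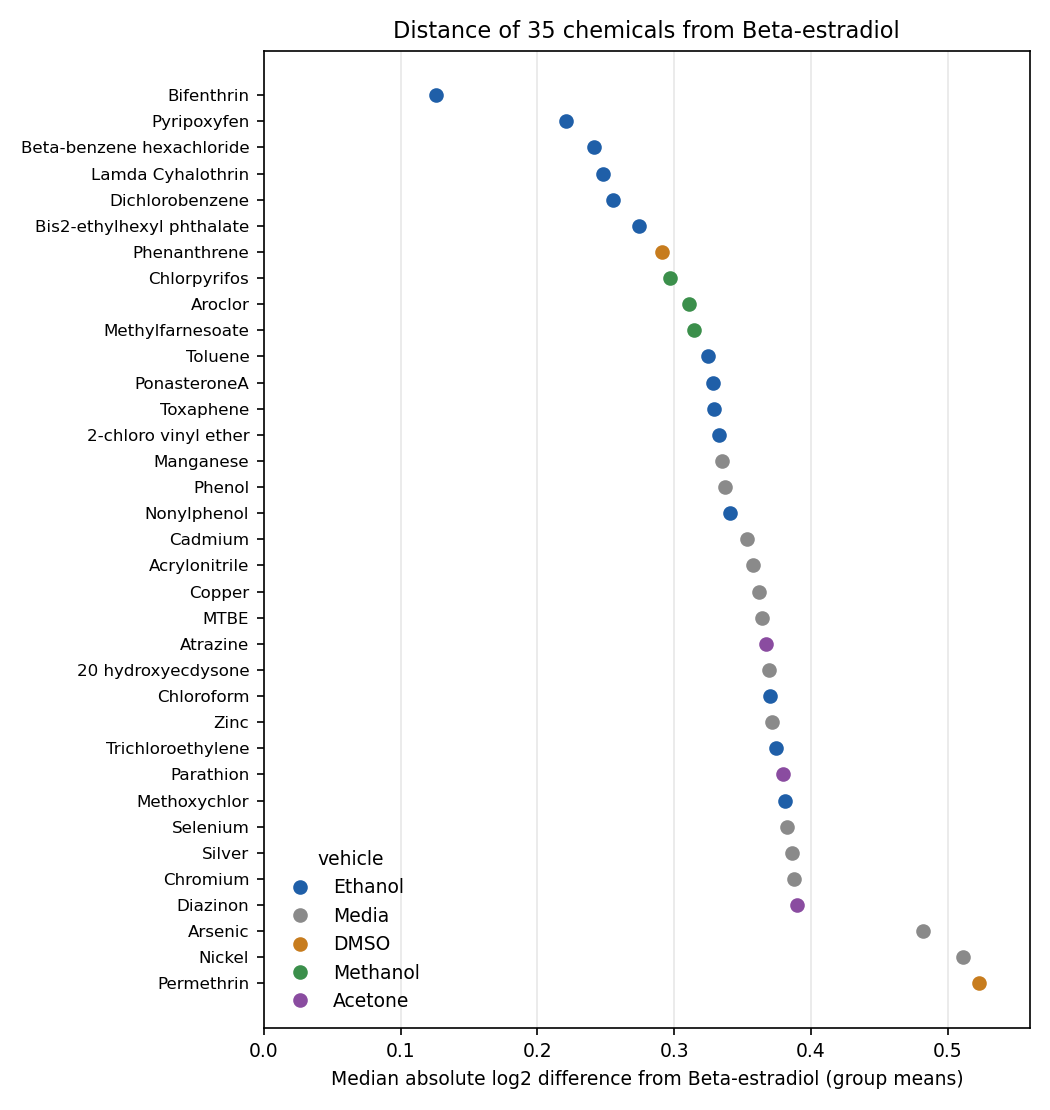
Median absolute log2 difference between the mean signal of Beta-estradiol and that of each of the 35 other chemicals (horizontal axis), coloured by vehicle. Bifenthrin lies apart at 0.126, the next chemical at 0.221 and Permethrin last at 0.523.

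The likeness was present on every array. For each of the 4 Beta-estradiol arrays, the 4 nearest arrays of other Ethanol chemicals were the 4 Bifenthrin arrays. The 16 distances between arrays of the 2 chemicals ran from 0.126 to 0.179 (median 0.154), and the 6 distances among Beta-estradiol arrays from 0.0604 to 0.138 (median 0.122), so the ranges overlapped. The 16 distances to Pyripoxyfen ran from 0.222 to 0.276 and did not overlap either range. Among the 105 pairs of Ethanol chemicals, Beta-estradiol and Bifenthrin were the closest pair. The next was Beta-benzene hexachloride with Bis2-ethylhexyl phthalate at 0.144. Bifenthrin was nearer to Beta-estradiol than to Lamda Cyhalothrin, the other pyrethroid of the vehicle, at 0.198.

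**Figure D3:**
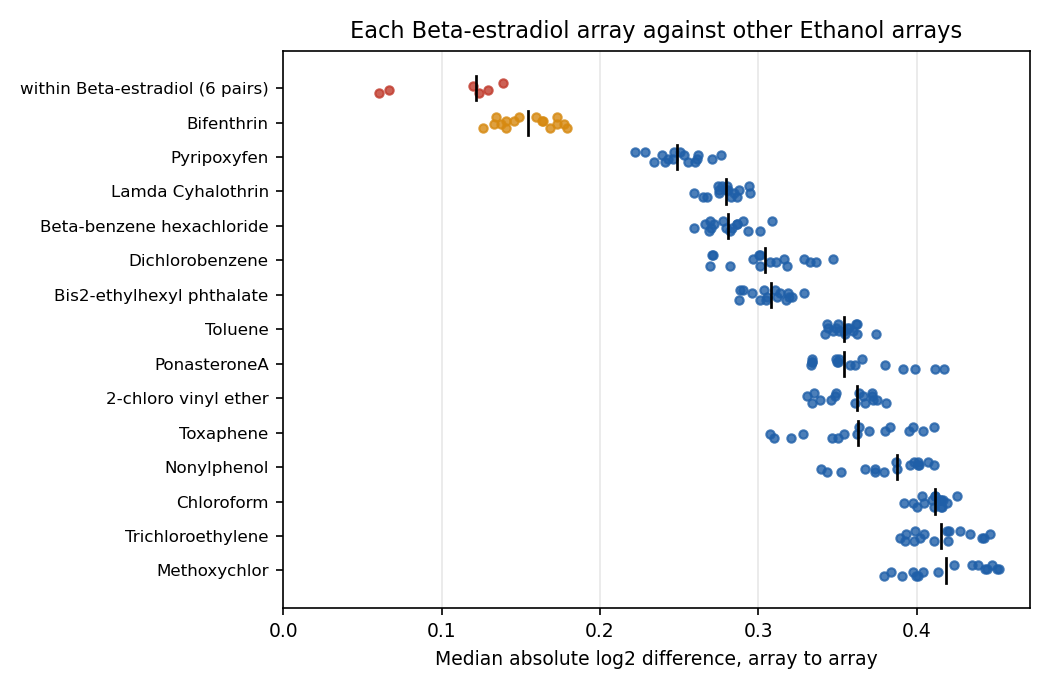
Median absolute log2 difference between each Beta-estradiol array and each array of another Ethanol chemical (16 points a row), and among the Beta-estradiol arrays (6 points, top row), with black bars at the medians. The Bifenthrin row, from 0.126 to 0.179, meets the top row, which ends at 0.138, and all other rows lie at 0.222 or above.

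The first place of Bifenthrin held in all classes of brightness, but narrowly in the dimmest. The probes were split into 4 equal classes by mean signal. From the dimmest class to the brightest, the distance to Bifenthrin was 0.0493, 0.183, 0.155 and 0.116. The nearest other Ethanol chemical was at 0.0573, 0.316, 0.323 and 0.214 in the same order. It was Lamda Cyhalothrin in the dimmer 2 classes and Pyripoxyfen in the brighter 2. Mean signals in the dimmest class ran only from 3 to 3.67, at or near the floor, which keeps all distances there small. Signals at control spots named E1A, over 5 kinds of spot with 20 copies each, averaged 10.16 ± 0.11 log2 units after Beta-estradiol and 10.30 ± 0.22 after Bifenthrin (SD over 4 arrays). These control signals were background-subtracted but, unlike the distances, not normalized over arrays. By this measure Bifenthrin was the 4th nearest of the 14, with Toluene nearest at 10.21 ± 0.29. The part of shared handling in the likeness was not tested.

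Bifenthrin also had the fewest calls and Methoxychlor the most, while the order between them differed in places from that of the distances. Against Bifenthrin 955 of 14276 probes were called, or 6.69%. The share was 32.9% against Pyripoxyfen, 36.8% against Beta-benzene hexachloride, 35.6% against Lamda Cyhalothrin, 39.1% against Dichlorobenzene and 41.7% against Bis2-ethylhexyl phthalate. It was 48.7% against Toluene, 50.2% against PonasteroneA, 49.1% against Toxaphene, 49.1% against 2-chloro vinyl ether and 50.5% against Nonylphenol. It reached 52.7% against Chloroform, 52.7% against Trichloroethylene and 54% against Methoxychlor.

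The 955 probes that separated Beta-estradiol from Bifenthrin comprised 369 higher and 586 lower after Beta-estradiol, and 156 of them differed by at least 1 log2 unit, 39 higher and 117 lower. The 4 arrays of one chemical did not overlap the 4 of the other at 851 of the 955. This was also so at 25.6% of all probes. The count was sensitive to how replicates were counted: with the arrays averaged in pairs, 187 probes were called, 61 higher and 126 lower. With only the 60 Ethanol arrays in the fit it was 1743. The split of higher and lower calls moved too, from 38.6% higher to 51.0% with normexp background correction, to 24.6% with median centring and to 23.9% in the deposited ratios.

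Where the chemicals differed, Bifenthrin usually sat with the rest of the vehicle. At 816 of the 955 probes the Bifenthrin mean was closer than the Beta-estradiol mean to the median of the other 13 Ethanol chemicals. The Beta-estradiol mean was closer at 139. Over all 14276 probes these counts were 8742 and 4361, and the rest were tied. Of the 39 probes at least 1 unit higher after Beta-estradiol, Bifenthrin was closer to that median at 38, and Beta-estradiol lay outside the range of the 13 at 29. Of the 117 lower ones, Bifenthrin was closer at 93 and Beta-estradiol lay outside the range at 33. Over all 14276 probes Beta-estradiol lay outside that range at 1934.

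The largest difference above Bifenthrin was at DM11944. Its signal was 10.63, 10.60, 10.51 and 10.48 after Beta-estradiol and 3.71, 3.46, 3.62 and 4.05 after Bifenthrin. The means differed by 6.84 ± 0.36 log2 units (SE, adjusted p = 4.6e-33 by limma), with no overlap between arrays. Bifenthrin was above background on only 3 of its 4 arrays, so the size is uncertain, and it was 4.41 with normexp background correction. DM11495 was at 12.03, 12.01, 12.14 and 12.13 against 5.81, 5.87, 5.89 and 5.77, a difference of 6.24 ± 0.23 (SE, adjusted p = 7.6e-48 by limma), which was 5.20 with normexp. It was not particular to Beta-estradiol, since the means of the other 13 chemicals ran from 5.90 to 15.60 and 1 of them exceeded it.

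On the lower side, DM05207 was at 5.72, 5.64, 5.25 and 5.12 after Beta-estradiol and between 10.16 and 10.23 on the 4 Bifenthrin arrays. The difference was -4.77 ± 0.17 (SE, adjusted p = 1.4e-47 by limma), or 27.3-fold, and with normexp it was -3.56, or 11.8-fold. DM09287 was at 9.73, 9.66, 9.62 and 9.60 against 14.05 to 14.08, a difference of -4.41 ± 0.14 (SE, adjusted p = 9.8e-53 by limma). Bifenthrin lay above the median of the other 13 chemicals at both probes (7.08 for DM05207 and 10.70 for DM09287), and so did Lamda Cyhalothrin, at 10.90 and 14.12, whose arrays overlapped those of Bifenthrin at DM09287. Beta-estradiol lay below that median at both, with 13 of the 14 chemicals above it at DM05207 and 11 at DM09287. Its mean was still nearer to the median than that of Bifenthrin, at 5.43 against 10.20 and at 9.65 against 14.07. Both probes were thus among the 24 of 117 lower ones at which Beta-estradiol was closer.

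The third question was what set Beta-estradiol apart from its vehicle as a whole. When set against the average of the group means of the 14 others, 6611 of 14276 probes were called (46.3%), 3423 higher and 3188 lower. The excess of higher calls turned with the scaling: median centring gave 3525 higher and 3627 lower, and the deposited ratios gave 2718 and 3504. Of the 6611 calls on the quantile-normalized signals, 736 differed by at least 1 log2 unit, 316 higher and 420 lower. The same contrast made for each of the 15 chemicals in turn gave 3521 calls for Beta-benzene hexachloride and 8626 for Chloroform at its ends, and Beta-estradiol ranked 9 of 15 from the fewest. A call against the mean can arise where some of the 14 resemble Beta-estradiol, so a stricter rule was applied.

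A probe was counted as particular to Beta-estradiol where it was called against each of the 14 chemicals, in the same direction and by at least 1 log2 unit each time. Of 14276 probes, 18 met the rule, 13 higher and 5 lower. The last probe inside the rule differed by 1.02 from its nearest chemical, and the first called probe outside it by 0.92. With the difference lowered to 1.5-fold there were 44. The same rule gave 0 probes for Bifenthrin and for Bis2-ethylhexyl phthalate and 206 for Chloroform, and Beta-estradiol was again 9 of 15. A near neighbour can lower such a count. Leaving Bifenthrin out of the 14 gave 23, 15 higher and 8 lower. With the nearest chemical of each left out in the same way, Beta-estradiol ranked 7 of 15. That step left Bis2-ethylhexyl phthalate at 0 but took Toluene from 9 to 220 and 2-chloro vinyl ether from 9 to 176. The part of near neighbours in these counts was not tested. The number fell to 7, all higher, with normexp background correction, which adds an offset of 50 intensity units to every signal. All 13 higher probes and 4 of the 5 lower ones were still called against each of the 14 chemicals in that setting.

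The 13 higher probes were above background on all 4 Beta-estradiol arrays, with mean signals from 4.77 to 11.43 log2 units (median 8.39). They exceeded the highest of the 14 other chemicals by 1.08 to 3.91 (median 1.71), and in 12 of them no Beta-estradiol array overlapped any array of the other 14. All Beta-estradiol arrays lay above all of these at 1.09% of all probes, and since the rule chose probes for their distance from the 14 means, nothing is read from this count. The rule already required a distance of 1 log2 unit from Bifenthrin. The differences from it, given as a description, were 1.64 to 6.84 (median 2.49). The nearest chemical was Beta-benzene hexachloride for 5 of the 13 and never Bifenthrin. Ratios to the control were deposited for 12 of them, and 11 were called higher there too. Groups at the floor of 3 have no spread, which lowers the p-values of dim probes.

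DM11944 led this set as well. The nearest chemical, Beta-benzene hexachloride, was at 6.65 ± 0.11, which is 3.91 below Beta-estradiol (adjusted p = 4.1e-17 by limma; 3.26 with normexp), and the median of the 14 was 4.11. DM12319 was second, at 11.56, 11.58, 11.24 and 11.33 (mean 11.43 ± 0.17, n = 4). Beta-benzene hexachloride was nearest again, at 8.95 ± 0.12, a difference of 2.48 (5.59-fold, adjusted p = 3.8e-05 by limma). This probe was not silent elsewhere. It was above background on all 4 arrays in 7 of the 14 chemicals and on none in 5.

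Bifenthrin was the nearest chemical for 3 of the 5 lower probes, and Methoxychlor for the other 2. The first place was close at DM03029, with Bifenthrin at 5.54 and Methoxychlor at 5.58. At another of the 3, Bifenthrin was at 7.61 and Dichlorobenzene at 7.65. The differences from the nearest chemical were small, 1.02 to 1.74 (median 1.07), and all 5 were also called lower against the control. With the arrays averaged in pairs, 13 probes met the rule, 11 higher and 2 lower.

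DM03029, the probe with the lowest ratio to the control, led the lower set. It was at 3.85, 3.64, 3.94 and 3.75 after Beta-estradiol (mean 3.80 ± 0.13, n = 4), above background on all 4 arrays. Bifenthrin was at 5.54 ± 0.10, a difference of -1.74 (3.34-fold, adjusted p = 2.3e-07 by limma), and the means of the other chemicals reached 11.55. With normexp background correction the difference from the nearest chemical was -0.54 and no longer passed (adjusted p = 0.079 by limma). DM09225 was at the floor of 3 on arrays 1, 3 and 4 and at 3.10 on array 2, and above background on 2 arrays. Methoxychlor, its nearest chemical, was at 4.34 ± 0.45 and itself above background on 2 of 4 arrays (adjusted p = 1.5e-06 by limma), so the size of this difference is poorly measured. It was -1.31 here, -0.71 with median centring and -0.30 with normexp (adjusted p = 0.05 by limma).

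**Figure D4:**
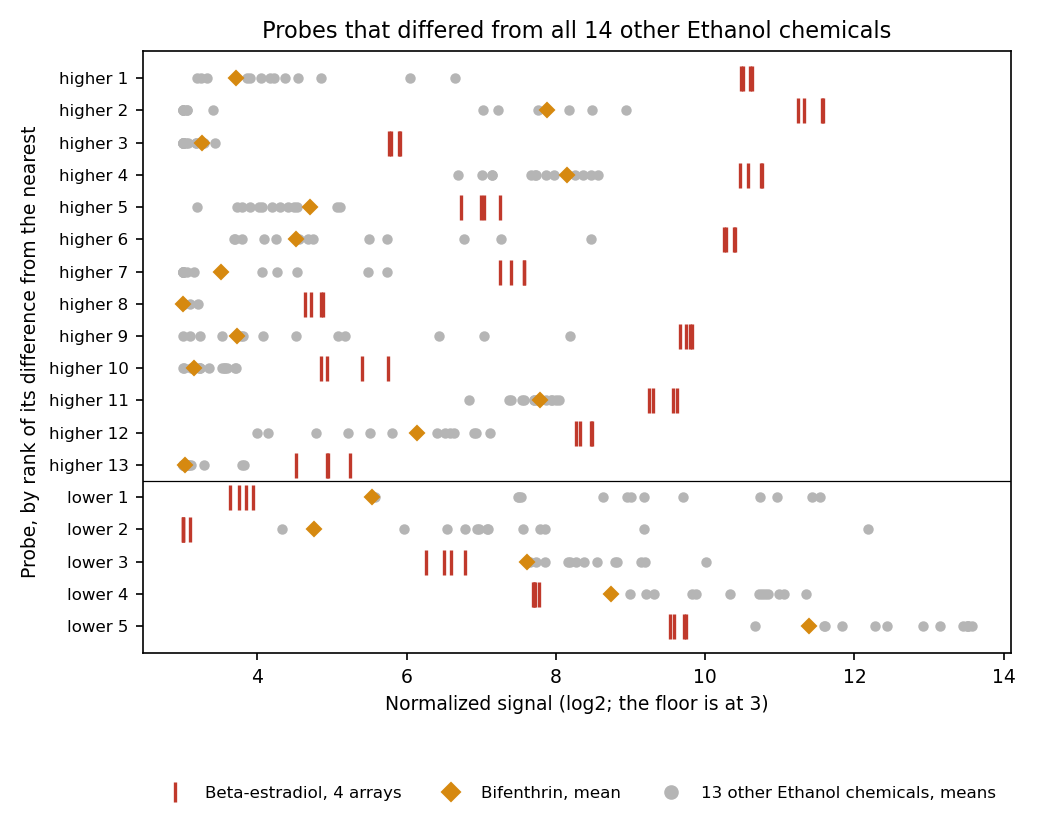
Normalized log2 signal (horizontal axis) of the 18 probes that met the rule, 1 per row, ordered by the difference from the nearest chemical. Red ticks are the 4 Beta-estradiol arrays, orange diamonds the Bifenthrin mean and grey points the means of the 13 other Ethanol chemicals. In the 13 upper rows Bifenthrin lies among the grey points, and in the 5 lower rows it lies toward the Beta-estradiol end.

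The 21 chemicals of other vehicles did not enter the rule, but the 4 Beta-estradiol arrays that did are used again here, so these counts are a description. For 12 of the 13 higher probes Beta-estradiol had the highest mean of all 36 chemicals, and for 9 it was called higher by at least 1 log2 unit against each of the 21. Over all probes these shares were 3.33% and 0.119%. The chemical nearest to Beta-estradiol among the 21 was Silver for 5 of the 13. DM11944 was at 6.43 and DM12319 at 9.83 after Silver. The lower probes were less separate: Beta-estradiol had the lowest mean of the 36 for 2 of the 5, and for none was it called lower by at least 1 unit against all 21. Over all probes these shares were 2.05% and 0.028%. DM03029 was at 3.28 after Diazinon, below Beta-estradiol. Vehicle and chemical cannot be told apart in these differences.

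**Figure D5:**
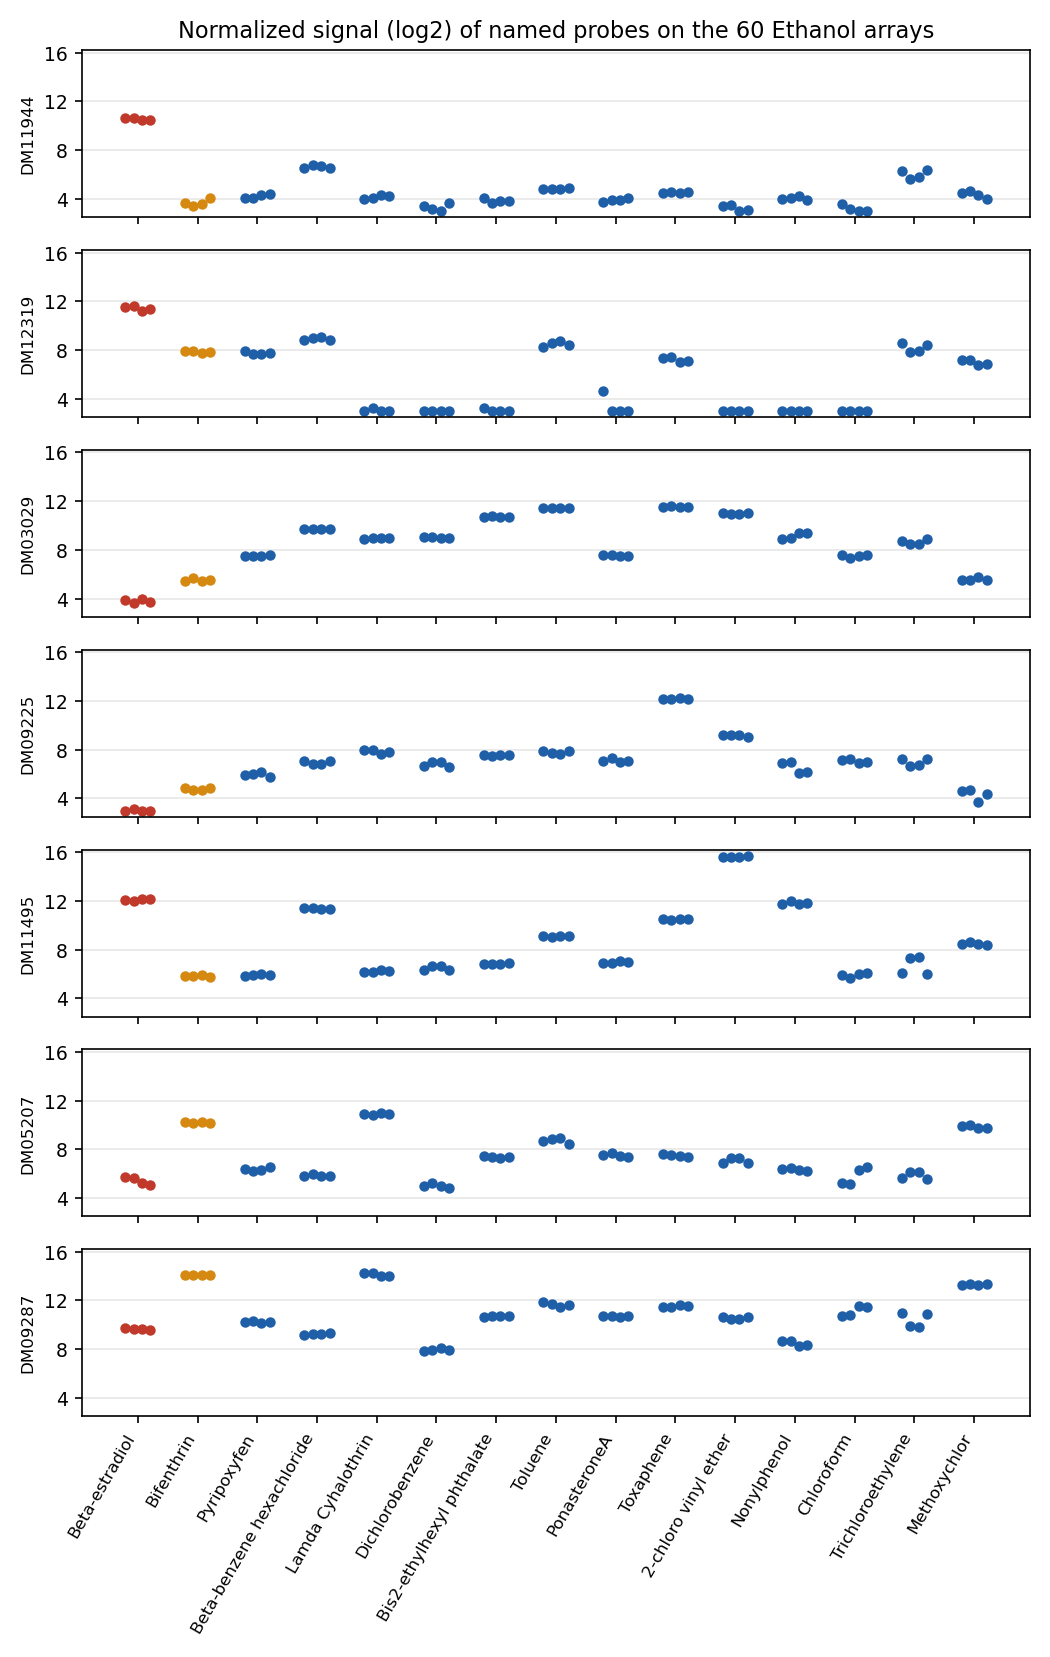
Normalized log2 signal (vertical axis) of 7 probes on each of the 60 Ethanol arrays, 4 points a chemical, with chemicals ordered by their distance from Beta-estradiol (red; Bifenthrin in orange). DM11944 and DM12319 are highest and DM03029 and DM09225 lowest after Beta-estradiol, while DM05207 and DM09287 are also high after Lamda Cyhalothrin and Methoxychlor.

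Whether Beta-estradiol and Bifenthrin shared probes that set both apart from the vehicle was examined next. The strict rule applied to both together, each against the other 13, gave 1 probe, DM01482, named here after its values were seen. It was at 5.03 ± 0.16 after Beta-estradiol and 5.04 ± 0.27 after Bifenthrin, and the lowest of the 13 others was at 6.05. Among all 105 pairs of Ethanol chemicals, 2-chloro vinyl ether with Toluene gave 139 probes, and Beta-estradiol with Methoxychlor gave 11, all lower.

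The comparisons with the hormone PonasteroneA and the oestrogen mimic Nonylphenol had larger leading differences than the one with Bifenthrin. Their leading probes were singled out after their values were seen. The leading higher differences were as large against Lamda Cyhalothrin (9.22) and Pyripoxyfen (8.83). On the lower side these 2 chemicals had leading differences of -7.06 and -4.14. DM05445 was at 11.80, 11.76, 11.89 and 11.86 after Beta-estradiol and at the floor on all 4 PonasteroneA arrays, none above background, so that it was at least 326-fold higher (adjusted p = 1.2e-38 by limma). With normexp, whose offset raises the dim side, the fitted difference was 60.4-fold. It was also at the floor after Pyripoxyfen and Lamda Cyhalothrin, and the highest of the other chemicals reached 12.10. DM09934 was lower, at 7.69 ± 0.24 against 14.34 ± 0.04 (difference -6.65 ± 1.05 SE, adjusted p = 3.8e-08 by limma). All 14 chemicals lay above Beta-estradiol at this probe, and the 13 besides PonasteroneA ran from 7.82 to 14.90 (median 9.17).

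Against Nonylphenol, DM12319 was the leading higher probe. It was above background on no Nonylphenol array and at least 287-fold higher after Beta-estradiol (adjusted p = 1.2e-28 by limma), with a fitted difference of 45.6-fold under normexp. DM11146 led the lower side, at 5.23, 5.94, 5.44 and 6.05 against 13.02, 12.99, 13.56 and 13.58. The difference was -7.62 ± 0.41 (SE, adjusted p = 6.8e-33 by limma), with no overlap, and -6.49 with normexp. It was not a difference from Nonylphenol alone, since 12 of the 14 chemicals lay above Beta-estradiol at this probe. The chemicals besides Nonylphenol ran from 3.09 to 14.13 (median 10.59).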

How the data were processed

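The authors deposited scanner tables with a foreground and a local background intensity for every spot, not normalized per the file headers, and a table of log2 ratios to a vehicle reference whose making is not given in the sources used here; the labels name limma among their tools. The 20 arrays of the control tables match no sample, so the control columns that a direct comparison with Ethanol would need were not used here, and the authors' deposited log2 ratios took their place. For Beta-estradiol, each of the 4 ratio columns matched its own scanner column best (lowest correlation 0.962 over 6762 bright probes), and differences between chemicals had slopes of 0.941 to 0.981 on scanner differences.

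Background was subtracted, values were quantile normalized over all 144 arrays, floored at 8 and put on the log2 scale, and 870 probes spotted 2 times were averaged. A flag marked all 1694 saturated probe spots and 62 others; the 62 probes of the latter were dropped, which left 14276 probes. The limit for a probe above background was set per array from 77 negative control spots (their mean, with 3 SD added). Means of 36 groups were fitted with limma 3.58.1 in R 4.3.3 (108 residual degrees of freedom), with Benjamini-Hochberg adjustment over all probes and a threshold of 0.05. The fit was tested on simulated data.

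Called probes without a bad-spot flag were ranked by mean ratio (1 sign on all 4 arrays), by difference from the nearest chemical, by difference from Bifenthrin, or by ratio among probes called in all 15 chemicals. The naming rule takes up to 10 in each direction, of which only the first 2 are printed, since they have no gene names. Members, lists and tests were chosen with earlier results of these data known. Lists of genes by function could not be applied, since no probe has a gene name here. Same-numbered arrays were compared for pairing: all 4 correlations of deviations exceeded 0.1 for 4 of 14 chemicals and not for Bifenthrin, so no block was used. Deposited flags marked bad spots per the file headers. No 2 arrays had identical values. The number of arrays limits the precision.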

Additional observations from a re-analysis of the deposited data

Results flagged for a closer look

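Of 21 sets of 4 values tested for a single value far from the other 3, 3 were past Dixon's limit, a limit that chance passes in about 1 of 20 such sets. The median net intensity of Beta-estradiol array 3 was 35, against 40 on each of the other 3 arrays. The log2 ratio of DM02537 to the Ethanol control was 5.97 on array 4 and 1.63 to 2.28 on the others, and its mean was 1.85 without array 4. The log2 signal of DM09225 was 3.10 on array 2 and at the floor of 3 on the others, so its gap is no more than the distance from the floor.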

How the results depend on the processing

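Of 70 recomputed counts and ranks under alternatives, 60 stayed within 1.5 times the reported value, and of 192 recomputed differences of named probes 191 kept their direction and their side of the threshold. Bifenthrin ranked 1 in every setting run. Leaving out 1 Beta-estradiol array gave 6655 to 6816 calls against the control, 5892 to 6110 against the other 14 chemicals, 647 to 931 against Bifenthrin, 16 to 22 particular probes and 52 to 57 probes called in all 15 chemicals. A minimum change of 1 log2 unit gave 1526, 736 and 156 calls in these 3 comparisons and 16 probes in all 15, by construction. The particular probes numbered 7 with normexp and 44 with a 1.5-fold minimum, and with a floor of 1 they numbered 25, of which 11 were higher (44.0% against 72.2%). Probes called in all 15 chemicals numbered 136 with quantile-normalized ratios, 60.3% of them higher against 29 of 58, and 26 with arrays averaged in pairs. Calls against Bifenthrin numbered 1743 with only the Ethanol arrays in the fit and 187 with arrays averaged in pairs. The cause of these shifts was not tested. DM03029 differed from its nearest chemical by -0.54 with normexp (adjusted p = 0.079 by limma). With replicate number as a block (replicate block), the counts were 7569 against the control, 6611 against the 14, 970 against Bifenthrin and 18 particular, and no named probe lost its call. Signals near background limit the size of every change of a dim probe.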
